A study of Xenopus laevis with 8 samples.

Results

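Chaperones and heat shock genes were followed in *Xenopus laevis* animal caps, the pluripotent ectoderm cut from the blastula, with and without the eye field transcription factors (EFTFs). The members were all probe sets of the Affymetrix *X. laevis* GeneChip whose gene symbol belongs to the HSPA, HSPB, HSPD, HSPE, HSPH or HSP90 families, to the J proteins (DNAJA, DNAJB, DNAJC), to the CCT chaperonin, or to the HSF, BAG or PDIA families. This gave 82 probe sets of the 15491 that match *Xenopus* transcripts. Of these, 80 carried 1 symbol each and are described below. They stood for 66 symbols and 53 genes, because many genes of the allotetraploid *X. laevis* exist as a pair of homoeologs, written .L and .S. The other 2 are listed for both homoeologs, of *hspa5* and of *dnajb11*, and were left out of all counts. No probe set carried the symbol of *hspa1a*, *hspa1b*, *hsp90aa1*, *dnajb1*, *bag1*, *dnajb13* or *hspb11*, and these genes were not analysed here.

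The EFTF caps came from embryos injected at early cleavage with RNA for *otx2* and for the eye field factors *six3*, *six6*, *pax6*, *rax*, *nr2e1* and *tbx3*. The control caps are labelled GFP. According to the methods, the control RNA was that of Venus YFP and both groups received it. They also describe donor embryos transgenic for Venus YFP. Caps were cultured to the equivalent of stage 15, several caps were pooled for each array, and 4 EFTF and 4 GFP arrays were used. All 8 arrays carry a replicate number from 1 to 4 in their labels. The methods describe triplicate analyses of tissue from different days and females. No source used here ties an array to a day or a female, so p-values measure the spread between these arrays only. GFP replicate 1 is named GFP by its title and EFTF by its source label. On that array *otx2.L* read 6.30 and *six6.L* 4.68 as log2 intensity, against lowest values of 9.21 and 7.54 on the EFTF arrays, and it was kept as GFP. It was the highest GFP array for both genes, the others reading 5.53 to 6.06 and 3.45 to 4.38.

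The values were intensities on which the authors had run RMA, and levels below are log2 RMA intensities, with changes given on that scale as EFTF minus GFP. Median intensities were 16.8 to 18.9 on the linear scale, and 72.4% to 83.4% of probe sets exceeded the highest control tag on an array, which was used as the background limit (2.90 to 3.18). Of the 80 chaperone probe sets, 70 were above this limit on all 8 arrays and 1, for *hspb1.L*, on none. EFTF replicate 1 correlated over all probe sets more closely with the GFP arrays (mean r = 0.970) than with the other EFTF arrays (mean r = 0.960). Levels of some cell type markers differed between the groups. Summed linear intensity of 17 neural plate markers was 5911 to 10346 on EFTF and 1178 to 2767 on GFP arrays, that of 15 epidermal markers 17425 to 26242 and 26232 to 30360, and that of 15 ionocyte and multiciliated cell markers 312 to 2445 and 4534 to 5739. The epidermal ranges met at their ends. Sums of 13 mesoderm markers, 922 to 1575 on EFTF and 1054 to 1552 on GFP arrays, overlapped, as did those of 11 endoderm markers, 89 to 100 and 99 to 130. In whole caps, fewer cells of a type and less RNA per cell cannot be told apart.

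Chaperones bind unfolded or partly folded proteins and keep them from aggregating. In the cytosol, HSP70 proteins bind and release their clients in an ATPase cycle that J proteins start and nucleotide exchange factors complete, HSP90 acts later on kinases and receptors, and the ring-shaped chaperonin CCT, also called TRiC, folds actin and tubulin. The endoplasmic reticulum (ER) has its own HSP70, BiP (*hspa5*), its own HSP90, GRP94 (*hsp90b1*), and the protein disulfide isomerases, which the unfolded protein response induces together. Mitochondria use mortalin (*hspa9*) and the HSP60 and HSP10 chaperonin (*hspd1*, *hspe1*). Heat and other stress act through heat shock factor HSF1 to induce many cytosolic and mitochondrial chaperones. In the early embryo most of these transcripts are abundant, and small heat shock proteins are best known from muscle, lens and stressed cells.

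As a class, the chaperones differed little between EFTF and GFP caps. The changes of the 80 probe sets ran from -1.34 to 1.36 with a median of -0.002, and 40 were positive and 40 negative. Over all 15491 probe sets the median was 0.02. The median size of the change, regardless of sign, was 0.13 for the chaperones and 0.17 for all probe sets, and 68.8% of the chaperones against 61.0% of all probe sets lay within 0.25 of 0. Among probe sets above background on at least 4 arrays the corresponding shares were 66.2% of 74 chaperones and 53.7% of all. In the limma fit without the replicate number, 0 of 80 chaperone probe sets had an adjusted p under 0.05, where 1.42% of all probe sets did. At that share a set of 80 would hold very few calls, so this count does not set the members apart from the whole array. At an unadjusted p under 0.05 there were 11 (13.75%), beside 17.3% of all probe sets, and an unpaired equal-variance test with the same adjustment called 0. The lowest adjusted p of any member was 0.063.

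With the replicate number as a block in the same model, 8 of the 80 (10%) were called, against 10.2% of all probe sets. The share of the members was that of the array as a whole. Of the 8, 6 were higher in EFTF caps (4.91% of all probe sets were called in this direction) and 2 were lower (5.25% of all). They belonged to 5 genes: *cct2.S* with 3 probe sets, *dnajc9.L*, *hsf2.L* and *dnajb12.S* were higher, and *hspb7.L*, with 2 probe sets, was lower. EFTF and GFP arrays did not overlap for 7 members (8.75%), where 10.2% of all probe sets did not overlap. None of the 8 was called when the arrays of replicate 2, 3 or 4 were taken out. Calls over all probe sets then fell from 1575 to 0, 42 and 0. Without the arrays of replicate 1, 9 members were called, and calls over all probe sets rose to 1829. There *dnajb12.S* was lost, and *cct5b* and *dnajb14.S* were gained. The changes of the 5 genes kept their direction and much of their size. That of *cct2.S* was 0.94, 0.75 and 0.82 without replicates 2, 3 and 4, and that of *dnajc9.L* was 1.46, 1.05 and 1.28.

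**Figure D1:**
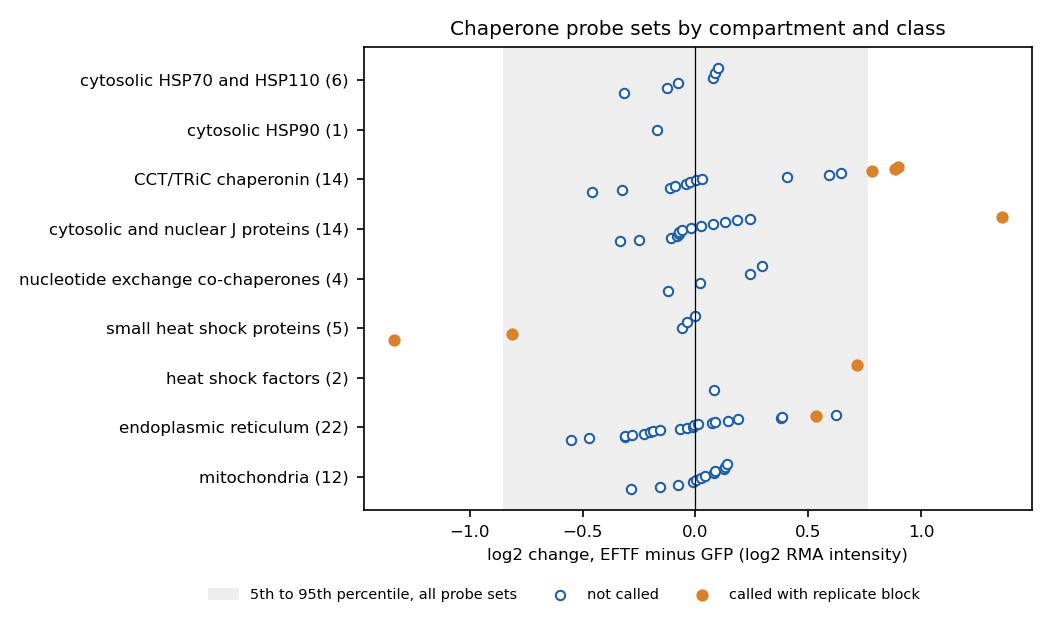
Log2 change (EFTF minus GFP, log2 RMA intensity) of each of the 80 chaperone probe sets, 1 point each, by compartment or class, with the number of probe sets in parentheses and a small vertical offset for visibility. Filled points were called with the replicate block and the grey band holds the 5th to 95th percentile of all 15491 probe sets (-0.85 to 0.76); *dnajc9.L*, the 3 probe sets of *cct2.S* and 1 of *hspb7.L* lie outside it.

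None of the 6 probe sets for cytosolic HSP70 and HSP110 genes was called in either fit. Over all probe sets 1.42% were called without and 10.2% with the block, so 6 would hold few calls at those shares. *hspa8.L*, the constitutive HSC70, read 10.89, 10.80, 10.88 and 10.79 on EFTF arrays 1 to 4 and 11.01, 10.84, 10.79 and 10.40 on GFP arrays 1 to 4. The EFTF values lay within the range of the GFP values, and the change was 0.08 ± 0.14 (SE, n = 4 and 4; 95% confidence interval -0.24 to 0.39). *hspa1l.S*, which the RefSeq table also lists under the synonyms hsp70 and hsc70, so that its inducibility is uncertain, changed by -0.12 ± 0.11. The interval of that difference ran from -0.37 to 0.13. *hspa4.S*, an HSP110-type exchange factor, changed by -0.08 ± 0.17. *hspa14.S*, the HSP70 of the ribosome-associated complex in human cells, had lower values in EFTF caps in all 4 replicate pairs, a change of -0.32 ± 0.13 that was called neither without (adjusted p = 0.264) nor with the block (adjusted p = 0.121). Its homoeolog *hspa14.L* changed by 0.10 ± 0.15.

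The single cytosolic HSP90 gene with a probe set, *hsp90ab1.S*, read 9.86, 9.77, 10.15 and 10.23 on EFTF arrays and 10.30, 10.17, 10.26 and 9.97 on GFP arrays. The groups overlapped, with EFTF lower in replicates 1 to 3 and higher in replicate 4, and the change was -0.17 ± 0.14 (95% confidence interval -0.49 to 0.15). The cytosolic J proteins that deliver clients to HSC70, *dnaja1.L*, *dnaja2.L* and *dnaja2.S*, changed by -0.07 ± 0.18, -0.11 ± 0.11 and -0.25 ± 0.12. *dnajc7.L*, whose human protein carries TPR repeats and links HSP70 with HSP90, changed by 0.18 ± 0.19 at its brightest probe set. None of these was called with the block, at adjusted p between 0.217 and 0.837.

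In the CCT chaperonin the subunits differed in direction. Its 14 probe sets, for 11 symbols, had a median change of 0.02 over a range from -0.46 to 0.90, and 6 of 14 lay within 0.25 of 0. *cct2.S*, the beta subunit, read 6.63, 7.13, 7.76 and 7.57 on EFTF arrays and 6.29, 6.36, 6.41 and 6.45 on GFP arrays at its brightest probe set. Every EFTF array was above every GFP array, and EFTF replicate 1 was the closest to them. This was a change of 0.90 ± 0.23, or 1.86-fold (adjusted p = 0.095 without and 0.038 with the block). The other 2 probe sets of *cct2.S* changed by 0.78 and 0.88. The names of all 3, the brightest included, mark probes that may be shared among transcripts, and they are not independent measurements. In the fit without the block all 3 were called only when EFTF replicate 1 was left out, at adjusted p of 0.016 to 0.018. Calls over all probe sets then rose from 220 to 702. With any other single array left out, the brightest probe set had an adjusted p of 0.138 to 0.226.

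*cct5b*, an epsilon subunit, also had no overlap, at 8.61, 8.68, 9.07 and 9.30 on EFTF arrays and 8.57, 8.22, 8.15 and 8.14 on GFP arrays. EFTF replicate 1 and GFP replicate 1 were nearly level, and the change of 0.64 ± 0.18 was not called (adjusted p = 0.123 without and 0.096 with the block). The second epsilon gene, *cct5.S*, changed by -0.33 ± 0.21, with EFTF below GFP in all 4 pairs. The probes of *cct5b* may hybridise to more than 1 transcript. *cct6a.S*, the zeta subunit, changed by 0.59 ± 0.26, with pair differences of 0.05, 0.32, 0.95 and 1.06, and *cct3.S*, the gamma subunit, by 0.40 ± 0.19. For both, the larger differences were in replicates 3 and 4.

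*cct7.L*, the eta subunit, went the other way in all 4 pairs, reading 6.92, 6.68, 6.28 and 6.37 on EFTF and 7.38, 7.16, 6.94 and 6.61 on GFP arrays. The groups overlapped and the change was -0.46 ± 0.20 (adjusted p = 0.301 without and 0.053 with the block). Its homoeolog *cct7.S* changed by 0.002 ± 0.25. *cct4.L*, *cct4.S*, *cct8.L* and *cct8.S*, the delta and theta subunits, lay between -0.11 and -0.02. The alpha subunit is encoded by *tcp1*, which the family names do not cover, and there *tcp1.S* changed by 0.50 ± 0.20 (adjusted p = 0.238) and *tcp1.L* by -0.08 ± 0.13. Whether the subunits differ from each other in their change was not tested.

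**Figure D2:**
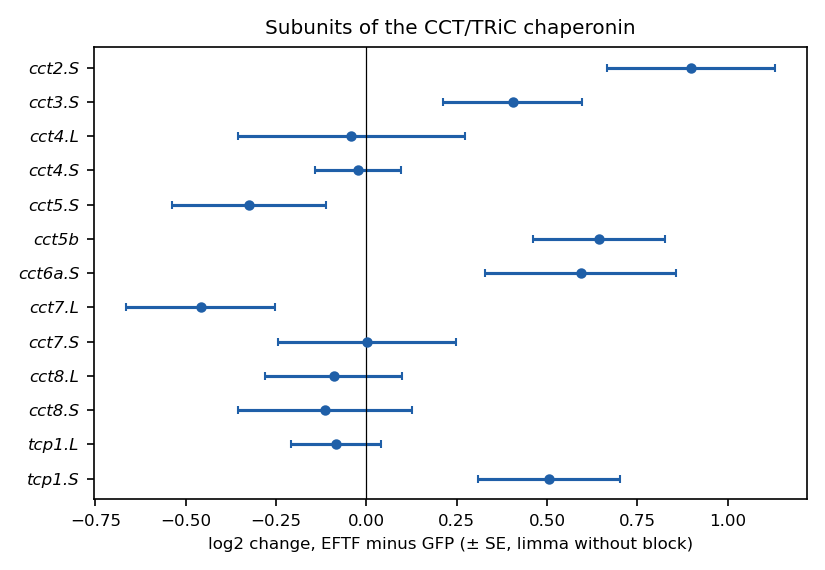
Log2 change (EFTF minus GFP) with its SE (limma without the block, n = 4 arrays per group) for the brightest probe set of each CCT subunit, with *tcp1* added. *cct2.S*, *cct5b*, *cct6a.S*, *tcp1.S* and *cct3.S* lie between 0.40 and 0.90, while *cct7.L* and *cct5.S* lie at -0.46 and -0.33.

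Among the other J proteins of the cytosol and nucleus, *dnajc9.L* stood out. DNAJC9 is in human cells a co-chaperone of newly made histones H3 and H4. The transcript read 4.02, 4.22, 5.72 and 5.29 on EFTF arrays and 3.50, 3.18, 3.44 and 3.70 on GFP arrays. All EFTF arrays were above all GFP arrays, with replicates 3 and 4 far above and replicates 1 and 2 closer. The change was 1.36 ± 0.37, or 2.56-fold (95% confidence interval 0.50 to 2.21), the largest positive change of any member, with adjusted p = 0.111 without and 0.042 with the block. GFP values were near the background limit, where RMA compresses differences. The other members of this class were within narrower limits: of 14 probe sets 12 lay within 0.25 of 0 and the median was -0.04. *dnajc21.L*, whose human protein acts in ribosome assembly, changed by 0.13 ± 0.26, and *dnajc8.S*, a J protein of the spliceosome, by 0.24 ± 0.17. *dnajb2.L*, the neuronal J protein HSJ1 of mammals, changed by -0.33 ± 0.39 and was above background on 2 EFTF and 3 GFP arrays. *dnajc5.S*, the synaptic vesicle J protein CSP of mammals, and *dnajc27.L* lay near background at 0.03 ± 0.17 and -0.08 ± 0.11.

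**Figure D3:**
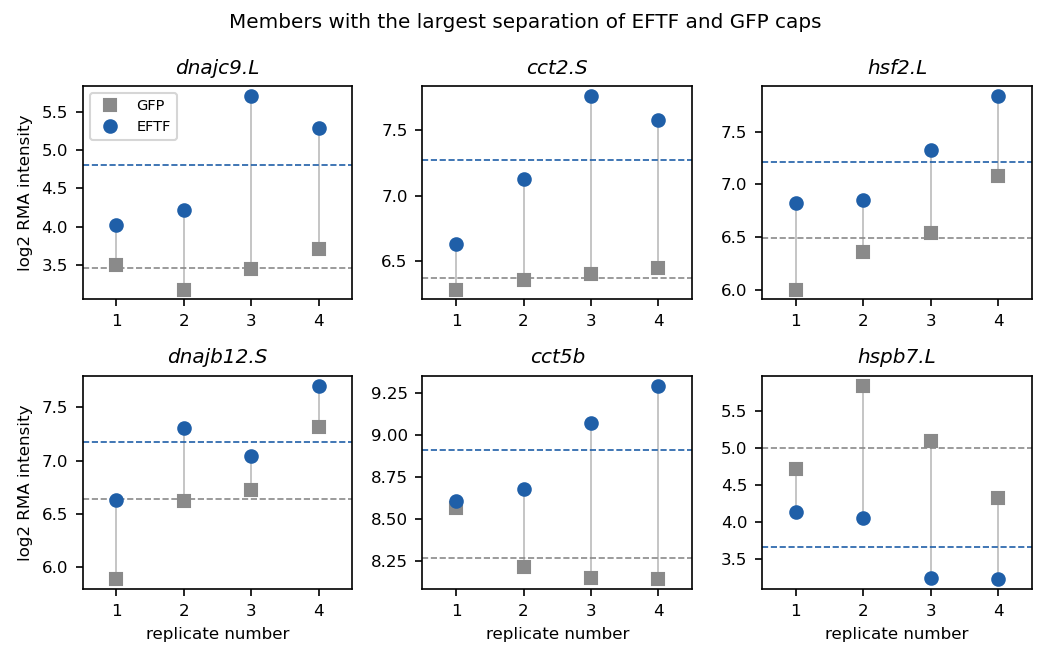
Log2 RMA intensity on each array by replicate number for the 5 genes called with the replicate block and for *cct5b*. Circles are EFTF arrays, squares GFP arrays, dashed lines the group means and grey lines join arrays of the same number; in each panel EFTF lies on the same side of GFP in all 4 pairs, but in *hsf2.L* and *dnajb12.S* the pairs also move together so that the groups overlap.

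Of the heat shock factors, *hsf2.L* was called higher in EFTF caps and *hsf1* was near background. HSF2 is a DNA-binding factor that in the mouse is expressed in the embryo and in the developing brain and testis. Its transcript read 6.82, 6.85, 7.33 and 7.84 on EFTF arrays and 6.01, 6.36, 6.54 and 7.08 on GFP arrays. The groups overlapped, because both were highest in replicate 4, yet EFTF was above GFP in all 4 pairs. The change was 0.72 ± 0.29, or 1.64-fold, with adjusted p = 0.255 without and 0.027 with the block. Of its sum of squares over the 8 arrays, 44.3% lay between the groups and 54.3% between the replicate numbers. *hsf1*, the stress-activated factor, was above the background limit on none of the EFTF arrays and 1 of the GFP arrays, so that no change is given for it.

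None of the 4 probe sets for *bag3*, *bag6* and *hspbp1*, grouped under the heading of nucleotide exchange co-chaperones, was called. Over all probe sets 1.42% were called without and 10.2% with the block. The heading does not mean that each of these genes encodes an exchange factor. *bag6.L* and *bag6.S* encode a chaperone for tail-anchored proteins and changed by 0.29 ± 0.19 and 0.02 ± 0.15. *hspbp1.L*, an exchange factor of HSP70, changed by 0.24 ± 0.15, with values higher in EFTF in all 4 pairs. *bag3.L*, which heat shock induces in human cells and which guides clients to autophagy, was above background on 2 EFTF and 4 GFP arrays, at a mean of 2.91 ± 0.09 for EFTF and 3.03 ± 0.19 for GFP (SD, 4 arrays each).

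The folding machinery of the ER was spread around 0. Its 22 probe sets for 18 symbols had a median change of -0.02, from -0.55 to 0.62, with 9 positive and 13 negative. With the block 1 of the 22 was called, where 10.2% of all probe sets were. *hspa5.S*, one copy of BiP, read 8.52, 7.34, 7.44 and 7.67 on EFTF arrays and 8.95, 7.98, 8.24 and 6.94 on GFP arrays. EFTF was lower in replicates 1 to 3 by 0.43 to 0.79 and higher by 0.73 in replicate 4, and the change of -0.28 ± 0.43 was not called (adjusted p = 0.565 with the block). *hspa5.L* showed the same order, with pair differences of -0.27, -0.49, -0.49 and 0.50. For GRP94, *hsp90b1.L* had pair differences of -0.74, -1.01, -0.31 and 0.17 and changed by -0.47 ± 0.42. The brighter *hsp90b1.S* had pair differences of -0.05, -0.47, -0.27 and 0.52 and changed by -0.07 ± 0.26. Both were higher in EFTF in replicate 4 alone.

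The protein disulfide isomerases, which form and rearrange disulfide bonds in secreted proteins, changed little. *pdia4.L* changed by -0.01 ± 0.13, *pdia6.L* by 0.01 ± 0.28, *pdia6.S* by 0.19 ± 0.10 and *pdia3.S*, whose human protein ERp57 acts on glycoproteins, by 0.15 ± 0.30. *pdia6.S* was higher in EFTF in all 4 pairs, by 0.09 to 0.33, and was not called with the block (adjusted p = 0.276). *pdia5.L* had 3 probe sets, which gave -0.04 at the brightest and -0.31 and 0.09 at the other 2, so they disagree in sign. *pdia2.L* was above background on none of the EFTF arrays and 3 of the GFP arrays.

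The ER J proteins held the only ER call, which was made with the block. *dnajb12.S*, a membrane-bound J protein that in human cells acts with HSC70 in ER quality control, read 6.63, 7.30, 7.05 and 7.71 on EFTF and 5.89, 6.62, 6.73 and 7.31 on GFP arrays. The groups overlapped and EFTF was higher in every pair, a change of 0.53 ± 0.33 with adjusted p = 0.478 without and 0.045 with the block. With the block it was not called when the arrays of any replicate number were left out, at adjusted p of 0.091 to 0.177. It was also not called with array medians made equal (0.062) or quantile normalization (0.060). The probes of this set may be shared with other transcripts. *dnajb14.S*, the closest relative of *dnajb12* in mammals, read 7.42, 7.86, 7.11 and 7.14 on EFTF and 7.48, 8.41, 7.81 and 8.04 on GFP arrays. EFTF was lower in every pair, and the change of -0.55 ± 0.24 was not called (adjusted p = 0.284 without and 0.078 with the block). Without the arrays of replicate 1 it was -0.71 and was called with the block (adjusted p = 0.035).

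*dnajb9.L*, encoding ERdj4, a BiP co-factor strongly induced by the unfolded protein response in mammals, read 4.81, 5.52, 5.51 and 7.61 on EFTF arrays and 5.17, 5.07, 5.41 and 5.30 on GFP arrays. The change of 0.62 ± 0.53 (adjusted p = 0.637) came from EFTF replicate 4, which stood 2.31 above its partner, while the other 3 pairs differed by -0.37 to 0.45. *dnajc3.L*, which encodes the ER co-chaperone p58IPK, changed by -0.31 ± 0.32. *dnajb11.L* and *dnajb11.S*, encoding the abundant BiP co-chaperone ERdj3, changed by -0.005 ± 0.13 and 0.38 ± 0.18. The 2 probe sets of *dnajb11.S* gave nearly the same change, 0.38 each. The probes of 1 of them may be shared, and they are not independent measurements. A second probe set of *dnajb11.L*, also with probes that may be shared, gave 0.07 ± 0.13, the opposite sign. The remaining ER J proteins *dnajc1.S* and *dnajc25.S* changed by -0.20 ± 0.33 and -0.16 ± 0.11.

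Mitochondrial chaperones stayed close to 0. Their median was 0.03, and 11 of 12 probe sets lay within 0.25 of 0 (61.0% of all probe sets). None of the 12 was called with either fit, where 1.42% of all probe sets were called without and 10.2% with the block. A list this short would hold few calls at those shares. *hspd1.S* (HSP60) changed by 0.08 ± 0.41, *hspe1.L* (HSP10) by 0.13 ± 0.31, *hspa9.L* by -0.01 ± 0.32 and *hspa9.S* by -0.16 ± 0.16. The errors of the first 3 are wide because arrays of the same group differed strongly from each other. A second probe set of *hspe1.L*, above background on 7 arrays and with probes that may be shared, gave -0.29 ± 0.29, the opposite sign. *dnaja3.L*, the mitochondrial J protein TID1 of human cells, changed by 0.14 ± 0.27 at its brightest probe set, whose probes may be shared. Its other probe sets gave 0.13 ± 0.11 and -0.08 ± 0.29, so they disagree in sign. *hspd1.L*, *dnajc19.L*, a partner of the import motor in human mitochondria, and *dnajc11.S* changed by 0.03 ± 0.17, 0.04 ± 0.19 and 0.003 ± 0.14.

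Small heat shock proteins were mostly at background, with 1 exception that was lower in EFTF caps. *hspb7.L*, whose mammalian counterpart is known from heart and skeletal muscle, read 4.13, 4.05, 3.24 and 3.22 on EFTF arrays and 4.72, 5.85, 5.09 and 4.32 on GFP arrays. The groups did not overlap, and EFTF replicates 3 and 4 were close to the background limit. The probes of this set may be shared among transcripts. The change was -1.34 ± 0.36, or 2.52-fold lower (95% confidence interval -2.16 to -0.51, adjusted p = 0.107 without and 0.031 with the block). Its second probe set gave 3.55, 3.88, 3.16 and 3.34 against 4.35, 4.45, 4.34 and 4.03, a change of -0.81 ± 0.17 (adjusted p = 0.063 without and 0.028 with the block). On the list of 13 mesoderm and muscle markers 0 were called with or without the block (10.2% of all probe sets with it). Their median change was -0.01, but only 6 were above background on at least 4 arrays and 4 were on none. With the block, 12 of 15 ionocyte and multiciliated cell markers and 2 of 15 epidermal markers were called lower (5.25% of all probe sets). Of the epidermal markers 14 had a negative change, with a list median of -0.42. Of 17 neural plate markers 12 were called higher with the block (4.91% of all). The part of any of these cells in the change of *hspb7.L* was not tested. *hspb1.L*, *hspb1.S* and *hspb8.L*, encoding HSP27 and HSP22 in mammals, were above background on at most 1 array in either group.

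Sorted by inducibility instead of compartment, neither inducible class held a call. Of the 13 probe sets for heat shock inducible genes and the 17 for genes of the unfolded protein response, 0 were called in either fit. Over all probe sets 1.42% were called without and 10.2% with the block, and lists this short would hold few calls at those shares. Of the heat shock inducible 13, the 3 for *hspb1* and *hspb8* were at background. The changes of the other 10 ran from -0.29 to 0.13 with a median of 0.05. Those of *bag3.L*, *hspd1.L* and *dnaja4.2.S* among them were dim, where RMA compresses differences. The 17 probe sets for genes of the unfolded protein response had a median of -0.005, and the 26 for constitutive cytosolic genes a median of -0.01, with the 3 of *cct2.S* called higher with the block. The *hsp70.L* probe set, which the family names do not cover and whose symbol is that of the inducible HSP70, had means of 2.80 ± 0.15 on EFTF and 2.87 ± 0.04 on GFP arrays (SD), near the background limit in both.

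The arrays also differed by replicate number, in the members about as much as over the whole array. The median share of the sum of squares between replicate numbers was 54.7% for the 80 members and 53.7% for all probe sets, and that between EFTF and GFP was 10.2% and 14.8%. Replicate number takes 3 and group 1 of the 7 degrees of freedom, and the replicate share was the larger one in 61 of the 80 members and in 11698 of all 15491 probe sets. For the 10 heat shock inducible probe sets above background on at least 4 arrays, the share between replicate numbers ran from 32.5% (*hspa1l.S*) to 99.2%, with a median of 79.8%, and the median share between EFTF and GFP was 2.39%. The 10 include 2 probe sets each of *hspd1.S* and *hspe1.L*. Large replicate shares also occurred at background, with 87.3% for *hspb1.L*, 56.4% for *hspb1.S* and 91.8% for *hspb8.L*. *dnaja4.1.L*, a J protein of the DNAJA4 family that heat induces in mammals, read 5.37, 5.75, 6.75 and 7.54 on EFTF and 5.46, 5.67, 7.03 and 7.50 on GFP arrays, so that both groups were low in replicates 1 and 2 and high in 3 and 4. Its paralog *dnaja4.2.S* was near background and stayed between 3.41 and 3.71 on all arrays. For *dnaja4.1.L*, 99.2% of the sum of squares lay between replicate numbers.

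*hsph1.L*, the inducible HSP110, read 6.51, 6.04, 5.94 and 7.11 on EFTF and 6.59, 5.97, 5.75 and 6.93 on GFP arrays, and 97.7% of its sum of squares lay between replicate numbers. *hspd1.S* read 5.24, 4.91, 4.67 and 6.41 against 5.51, 5.13, 4.49 and 5.78, and *hspe1.L* 5.96, 5.86, 5.72 and 7.05 against 5.86, 5.88, 5.83 and 6.50. In all 3 genes replicate 4 was the highest array of both groups. Compared with the mean of replicates 1 to 3, replicate 4 was higher by 0.94 (EFTF) and 0.82 (GFP) for *hsph1.L* and by 1.47 and 0.74 for *hspd1.S*. For the homoeolog *hspd1.L* it was higher by 0.53 and 0.14, and GFP was highest in replicate 1. *hspa9.L*, which is not on the heat shock inducible list, was higher by 1.22 and 0.68, and its homoeolog *hspa9.S* by 0.002 and 0.11. Of the 8 heat shock inducible genes above background, 5 were higher in replicate 4 in both groups, 1 was lower in both and 2 differed in direction. Among the 18 genes on no inducibility list, 9 were higher in both and 6 lower. For the 22 constitutive cytosolic genes these counts were 5 and 10, and for the 13 of the unfolded protein response 2 and 8. The median level of all members was also highest in replicate 4 of each group, at 7.02 (EFTF) and 6.54 (GFP). Whether the classes differ in this shift was not tested. Replicate 4 was chosen for this description after its values were seen, and what the replicates differed in was not tested.

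Among the genes of the unfolded protein response, averaged over both groups, 8 of 13 were highest in replicate 1 and 9 of 13 lowest in replicate 4, several of them homoeolog pairs. In the constitutive cytosolic class these counts were 8 and 9 of 22. Whether the classes differ in this was not tested. *hsp90b1.L* read 8.13, 7.10, 7.22 and 7.11 on EFTF and 8.87, 8.10, 7.54 and 6.94 on GFP arrays. Replicate 1 was the highest in both groups, by 0.99 and 1.34 over the mean of the others, and for *hspa5.S* by 1.04 and 1.23. The mean level of the 13 genes was 8.23, 8.01, 8.06 and 8.13 on EFTF arrays 1 to 4 and 8.42, 8.20, 8.10 and 7.72 on GFP arrays 1 to 4. Replicate 1 was the highest in both groups, while replicate 4 was the lowest among GFP arrays but not among EFTF arrays.

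**Figure D4:**
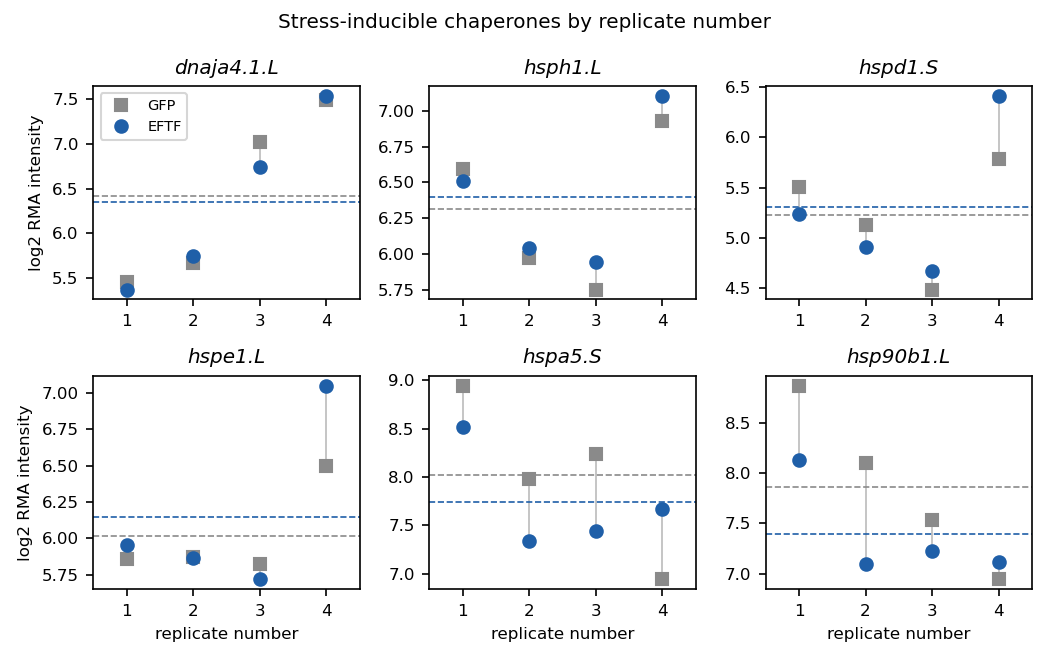
Log2 RMA intensity on each array by replicate number for 4 heat shock inducible genes (*dnaja4.1.L*, *hsph1.L*, *hspd1.S*, *hspe1.L*) and 2 genes of the unfolded protein response (*hspa5.S*, *hsp90b1.L*), with circles for EFTF, squares for GFP and dashed lines for group means. In the first 4 panels both groups are highest in replicate 4, and in the last 2 both are highest in replicate 1.

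**Figure D5:**
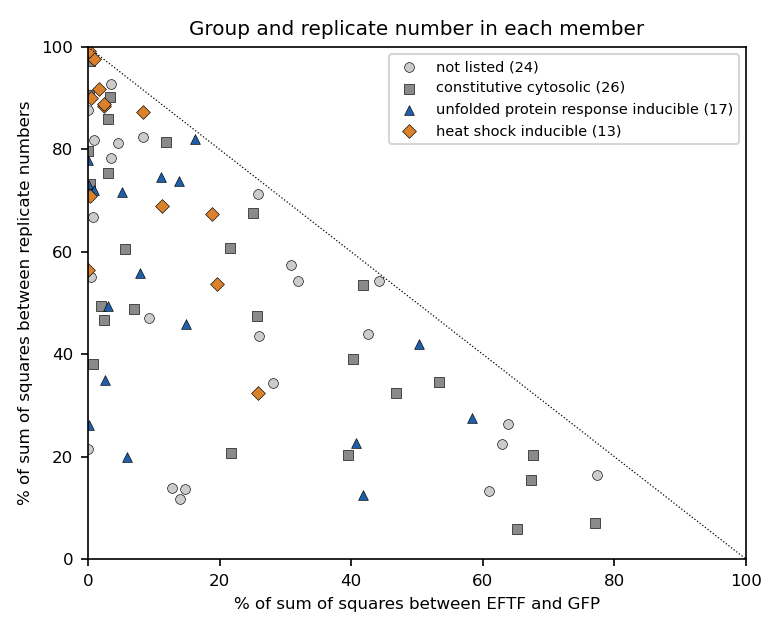
Share (%) of each probe set's sum of squares over the 8 arrays that lies between EFTF and GFP (horizontal) and between replicate numbers (vertical), 1 point for each of the 80 probe sets, marked by inducibility; the dotted line is a sum of 100%. Among the heat shock inducible probe sets *dnaja4.1.L* and *hsph1.L* lie at the upper left corner, at 99.2% and 97.7% between replicate numbers, and *hspa1l.S* lies at 32.5%; the 3 at background are plotted too.

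Genes of the same systems outside the family names, each at its brightest probe set, held no call in either fit. Counted in the same way, the 66 member symbols held 4 calls higher and 1 lower with the block. Whether the members and these genes differ in this was not tested. There were 20 other cytosolic chaperone and co-chaperone symbols, 27 for ER folding and stress and 7 for mitochondria. Of these, 0 were called without or with the block (1.42% and 10.2% of all probe sets, respectively). The median changes of these lists were -0.07, -0.03 and 0.08. After *tcp1.S*, the largest cytosolic changes were -0.31 ± 0.13 for *vbp1.S*, a prefoldin subunit that hands actin and tubulin to CCT, and 0.31 ± 0.55 for *ahsa1.S*, which stimulates the ATPase of HSP90. In the ER, *calr.L*, the lectin chaperone calreticulin, changed by -0.54 ± 0.27, *erp44.L*, a thiol retention factor, by -0.44 ± 0.14, *derl2.L*, a component of ER-associated degradation, by 0.47 ± 0.16 and *serpinh1.S*, the collagen chaperone HSP47, by 0.42 ± 0.60. *calr.L* was low on EFTF arrays 2 and 3 (8.78 and 8.81) and within the GFP range on EFTF arrays 1 and 4 (9.79 and 9.88). *serpinh1.S* was high on EFTF replicate 4 alone, at 5.72 against 3.01 to 3.13 on the other EFTF arrays. In mitochondria the largest change was 0.19 ± 0.20 for *clpp.L*, a matrix protease subunit.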

How the data were processed

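The authors preprocessed the arrays with RMA (no version given) and deposited linear intensity, 1 value per probe set and array. A scaling step in GeneSpring is described as well, but no source used here says whether the deposited values hold it. No pseudocount was added before taking log2. After removing 120 control probe sets, 15491 were fitted in R 4.3.3 with lmFit and eBayes of limma 3.58.1, and two-sided p-values were adjusted by Benjamini-Hochberg (threshold 0.05). The fits were tried on simulated data in which arrays were drawn independently, without a replicate effect. That simulation cannot show how the block behaves on these arrays. The probe annotation gave 1 symbol for 9304 probe sets, and 65 of the 66 member symbols were matched by gene ID to the RefSeq table (Xenopus_laevis_v10.1). Symbols with several probe sets are represented by the brightest one unless stated. Background was the highest of 17 tag controls on each array.

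Replicate numbers come from the sample titles. Deviations of same-numbered arrays from their group means correlated at r = 0.44, 0.60, 0.22 and 0.64 over all probe sets. Between EFTF and GFP arrays of different number r ran from -0.45 to 0.28. GFP replicate 3 correlated more closely with EFTF replicate 2 (0.28) than with EFTF replicate 3 (0.22), so its pairing is less certain. The numbers were treated as pairing the arrays, and calls with the block rest on this. The fit with the number as a block is given beside the main one where it changes a call. The labels do not say what a number marks.

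Members, gene lists and the rule for named genes were chosen with earlier results of these data known. The rule names the members called with the block and changed at least 2-fold, the 8 largest changes in each direction above background, and a list of core genes (44 genes in all). Genes named beyond it (such as *dnaja4.1.L*, *dnajc7.L*, *dnajc21.L*, *hspa4.S*, *dnaja3.L*, *pdia5.L* and *dnajb11.S*) were chosen after their values were seen. The alternatives were leaving out arrays, other scaling, an added constant, a variance trend, the equal-variance test and a background filter.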

Additional observations from a re-analysis of the deposited data

Results flagged for a closer look

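Among 88 groups of 4 arrays examined for the named genes, 4 held 1 array that stood apart from the other 3 by Dixon's criterion, which chance alone meets in about 1 group in 20. *hspe1.L* read 6.50 on GFP replicate 4, against 5.83 to 5.88 on the other GFP arrays. *hspa9.L* read 7.39 on EFTF replicate 4, against 6.08 to 6.28 on the others. *hsp90b1.L* read 8.13 on EFTF replicate 1, against 7.10 to 7.22. *bag3.L* read 3.32 on GFP replicate 1, the array whose source label names EFTF, against 2.91 to 2.97, all near the background limit. None of these 4 genes was called in either fit.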

How the results depend on the processing

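Without the replicate number, 0 chaperone probe sets were called in 13 of 15 alternatives. The exceptions were quantile normalization (1, *hspb7.L*) and leaving out single arrays (0 to 4, the 4 being *cct2.S* and *dnajc9.L* without EFTF replicate 1). With the replicate block 8 were called, 9 without the pair of replicate 1, 0 without that of 2, 3 or 4, 6 with array medians made equal (*cct7.L* at -0.53 gained, adjusted p = 0.046) and 7 with quantile normalization. *dnajb12.S* was called in none of these other blocked fits, and *cct5b* and *dnajb14.S* were gained without the pair of replicate 1. The blocked fits other than the first were chosen after seeing the data. Over all probe sets, the 220 calls (118 higher, 102 lower) became 1575 with the block, 18 with replicates 1 to 3, 92 with 16 added to the intensity, 2 with the equal-variance test and 25 to 702 without single arrays (25 without GFP replicate 3, 702 without EFTF replicate 1). With the block they became 1829, 0, 42 and 0 without the pairs of replicates 1, 2, 3 and 4, 1706 with array medians made equal (670 higher, 1036 lower) and 1490 with quantile normalization (755 and 735). With array medians made equal and no block the split was 124 higher and 170 lower. The causes were not tested. The median change of the members stayed between -0.07 and 0.04, and the 9 named genes changed by 0.5 or more kept their sign in every alternative. The number of arrays and compression of dim probe sets limit the precision, with a median SE of 0.18.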
